A study of Triticum aestivum with 45 samples.

Results

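The distal end of the short arm of wheat chromosome 3B (3BS) was taken as all genes with identifiers from TraesCS3B01G000100 to TraesCS3B01G036800, the stretch where the Fhb1 locus of the parent CM82036 lies. The deposited table holds 368 such genes of 110790 in all. In the annotation style of these identifiers the numbers rise along the chromosome from the end of the short arm, so they give the order of genes without coordinates. Of the 368 genes, 108 had no count in any library, 120 had some counts but too few to be tested, and 140 were tested among 63091 genes of the whole genome. The files give no gene names and no sequences, so genes are described by identifier and by their place in the order.

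Bread wheat carries A, B and D subgenomes, and a gene on 3B usually has close copies, its homoeologs, on 3A and 3D. Fhb1 is a quantitative trait locus whose resistant form limits the spread of Fusarium head blight, a fungal disease, from spikelet to spikelet within the spike. A line made by crossing a donor into a cultivar carries donor chromosome segments in a background of the cultivar, and a doubled haploid line carries each segment on both chromosome copies. Whether DH2 carries the CM82036 form of Fhb1 is not stated in the labels.

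RNA was sequenced from spikelets of 3 spring wheat genotypes at flowering. Superb is a Canadian Hard Red Spring cultivar, DH1 (GS-1-EM0040) is a doubled haploid line from the pedigree CIMMYT11/Superb*2, and DH2 (GS-1-EM0168, also labelled EM168) is one from CM82036/Superb*2. Each genotype was sampled untreated at 0 h, and at 8 h after the spikes were sprayed with water or with a hormone treatment at 100 µM. The treatments were MeJA, the methyl ester of jasmonic acid, then SA (salicylic acid), and ethephon, which breaks down to ethylene in plant tissue. Each of the 15 groups has 3 libraries, which gives 15 libraries per genotype and 45 in all, with totals of 6446374 to 17940396 counts. The labels give 5 plants per treatment group but not how plants were divided over the replicates, so p-values measure only the spread between these libraries, which may be technical. DH1 and DH2 are 1 line each, so a difference between genotypes is a difference between these lines.

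The question put to the region was how DH2 differs from Superb and from DH1, gene by gene along the order and over the 5 conditions. Levels are given in CPM, which are counts scaled to library size, and they are compared between libraries for 1 gene, not between genes, since gene lengths were not used here. A call is a Benjamini-Hochberg adjusted p under 0.05 from edgeR's quasi-likelihood test, adjusted over all 63091 tested genes. Reads were assigned to gene models of a reference wheat, so less RNA and a sequence that differs from the model cannot be told apart, and closely similar copies may share reads.

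One library stood apart within its group. DH2 untreated replicate 3 was placed on a scale where 0 is the level of Superb and DH1 and 100 is the level of the other DH2 libraries, over the 15 region genes whose median log2(CPM + 0.5) in the other DH2 libraries differed by at least 2 from those of both other genotypes. Its median position was 30.6, while the other 14 DH2 libraries had medians of 81.7 to 103. It lay nearer to the other genotypes for 10 of the 15 genes. Outside the region, it lay nearer to DH2 for 58.9% of 236 genes chosen the same way, against 93.6% to 100% for the other DH2 libraries. DH1 ethephon replicate 1 had a median position of 10.4 in the region, the highest of the Superb and DH1 libraries, and was nearer to the other genotypes than to DH2 for all 15 genes. Outside the region it was nearer to DH2 for 38 of 231 genes (16.5%), where the other Superb and DH1 libraries reached at most 6.38%. All libraries were kept, and results are also given without DH2 untreated replicate 3, a choice made after its values were seen.

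**Figure D1:**
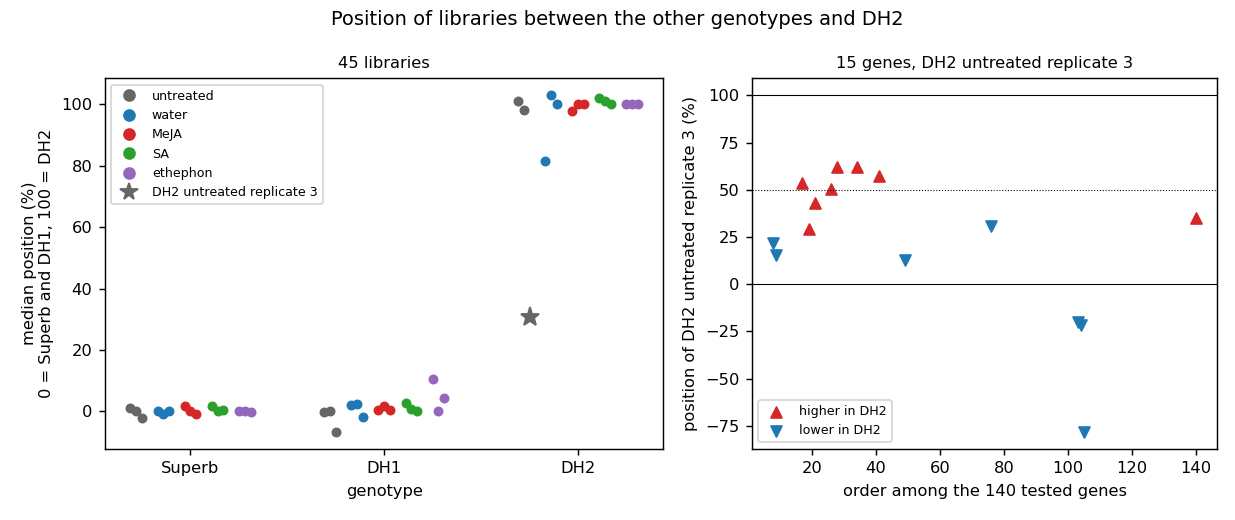
Left, the median position of each of the 45 libraries over 15 region genes, as a percentage from the level of Superb and DH1 (0) to that of DH2 (100), by genotype and with conditions as colours. Right, the position of DH2 untreated replicate 3 for each of the 15 genes against their order. The starred library has a median of 30.6, and the other DH2 libraries have medians of 81.7 or more.

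DH2 differed from both other genotypes at about every second tested gene of the region, in both directions, and often by a large factor. DH1 and Superb differed there at about the share seen in all tested genes. Between DH2 and Superb, 67 of 140 tested genes were called (47.9%), where 10.7% of all tested genes were called. DH2 was higher in 37 of them (against 4.35% of all tested genes) and lower in 30 (6.39%). Between DH2 and DH1, 78 were called (55.7%, against 20.5%), 42 of them higher in DH2 (8.79% of all tested genes) and 36 lower (11.7%). Both comparisons use the same DH2 libraries, so they are not independent of each other. Between DH1 and Superb, 7 were called (5%, against 5.34% of all tested genes), 2 of them higher in DH1 (2.54%) and 5 lower (2.8%). The 7 became 3 without Superb water replicate 1 (4.57% of all tested genes) and 4 without DH1 MeJA replicate 1 (4.76%).

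The differences were also larger than over all tested genes. Calls with a change of at least 2-fold (log2 fold change of at least 1) numbered 43 for DH2 against Superb (30.7%, against 2.08% of all tested genes) and 42 for DH2 against DH1 (30%, against 4.14%). Between DH1 and Superb there was 1 such gene (0.714%, against 1.66%). The median absolute log2 fold change over the 140 genes was 0.445 for DH2 against Superb, where it was 0.119 over all tested genes. For DH2 against DH1 it was 0.403 and 0.137, and for DH1 against Superb 0.12 and 0.104. Setting TraesCS3B01G020000, which had no count in Superb and DH1, at its lower bound gave the same medians of 0.445 and 0.403. Without DH2 untreated replicate 3, 70 genes were called for DH2 against Superb (against 12.2% of all tested genes) and 80 for DH2 against DH1 (against 21.6%).

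**Figure D2:**
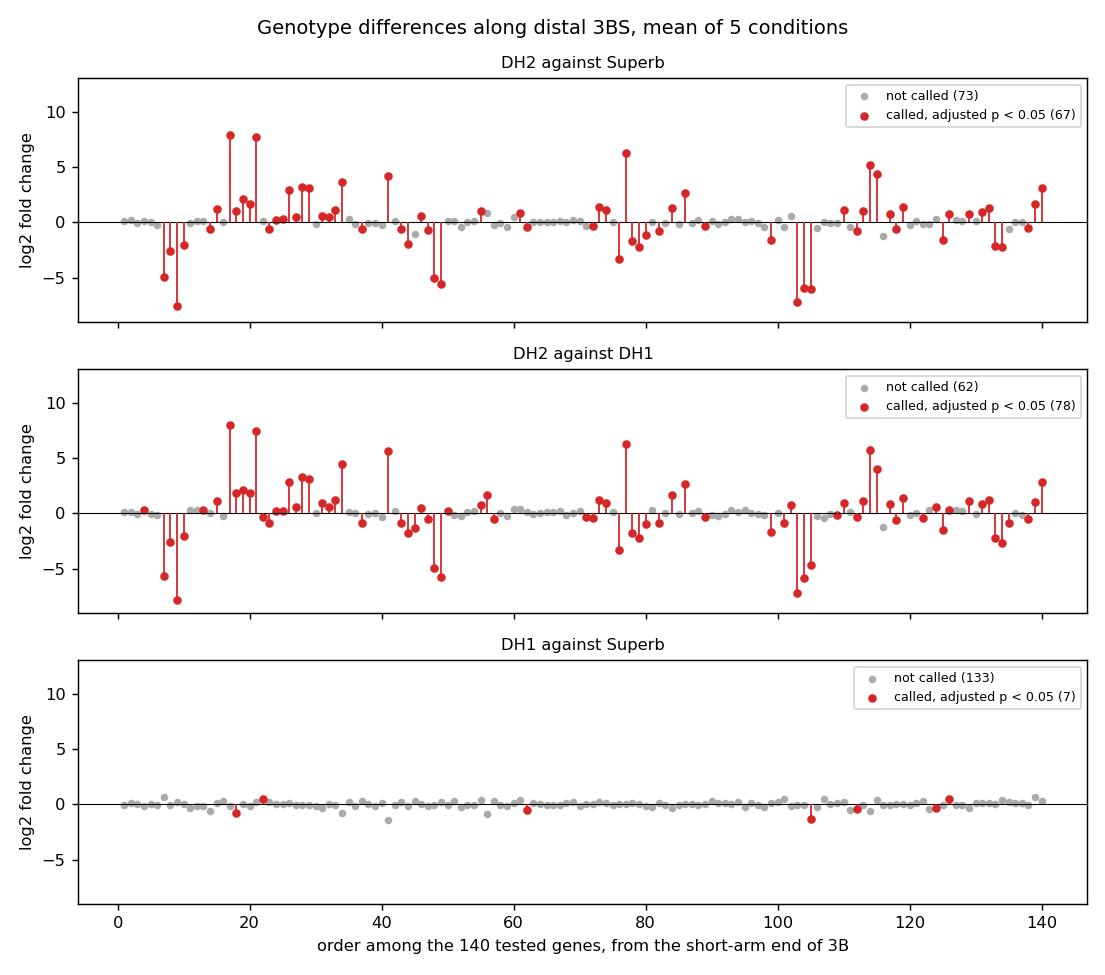
Log2 fold change of each of the 140 tested genes of distal 3BS, in order from the end of the short arm, for DH2 against Superb, DH2 against DH1 and DH1 against Superb, each as the mean over the 5 conditions. Red points with stems are called at adjusted p under 0.05 and grey points are not. The first and second panels hold 67 and 78 called genes, with changes of both signs along the whole stretch, and the third holds 7.

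To rank the genes, DH2 was set against the mean of Superb and DH1, which gave 75 called genes (53.6%, against 18.8% of all tested genes). Of these 42 were higher in DH2 (8.22% of all tested genes) and 33 lower (10.6%), and 44 differed by at least 2-fold (31.4%, against 2.85%). TraesCS3B01G004500 had the largest rise among genes with at least 1 CPM in some genotype. It had 0 CPM in most Superb and DH1 libraries, with maxima of 0.111 and 0.236 CPM. In DH2 its level ran from 1.07 to 33 CPM, with a median of 3.68, and all 15 DH2 libraries lay above all 30 others. Its log2 fold change was 7.86 ± 0.72 (SE) against Superb (adjusted p = 2.98e-09) and 7.97 ± 0.72 against DH1 (adjusted p = 1.11e-09).

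TraesCS3B01G005000 showed the same arrangement with a steadier level. Superb reached at most 0.156 CPM and DH1 0.198 CPM, both with medians of 0. The DH2 libraries ran from 1.45 to 19.6 CPM with a median of 11.1, and the lowest of them was untreated replicate 3. The groups did not overlap, and the log2 fold change was 7.68 ± 0.3 (SE) against Superb (adjusted p = 9.25e-28) and 7.44 ± 0.29 against DH1 (adjusted p = 2.37e-28).

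TraesCS3B01G006300 and TraesCS3B01G035900, which headed the genes lower in Superb than in the mean of the lines, were present in all genotypes at different levels. TraesCS3B01G006300 ran from 0.767 to 2.87 CPM in Superb (median 1.73), from 0.876 to 2.63 CPM in DH1 (median 1.74) and from 7.31 to 27 CPM in DH2 (median 15.6). The DH2 libraries again lay wholly above the others, and the log2 fold change against Superb was 3.2 ± 0.17 (SE, adjusted p = 2.18e-17). TraesCS3B01G035900, the last tested gene of the region, had medians of 0.427 CPM in Superb, 0.499 CPM in DH1 and 4.33 CPM in DH2, with a log2 fold change of 3.07 ± 0.22 (SE) against Superb (adjusted p = 1.37e-13). Here the lowest DH2 library, untreated replicate 3 at 1.2 CPM, lay below the highest DH1 library at 1.56 CPM, and the other 14 DH2 libraries lay at 1.68 CPM or above.

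TraesCS3B01G010200 and TraesCS3B01G007500 were likewise high in DH2 and low in both others. TraesCS3B01G010200 had medians of 0.28 CPM in Superb, 0.201 CPM in DH1 and 5.14 CPM in DH2. TraesCS3B01G007500 had medians of 0.286, 0.275 and 3.97 CPM. Against DH1 their log2 fold changes were 5.59 ± 0.41 (SE, adjusted p = 5.14e-14) and 4.42 ± 0.34 (adjusted p = 1.18e-14). Both were called lower in DH1 than in the mean of Superb and DH2, a contrast that takes in the high DH2 level, and both of those calls were lost without Superb MeJA replicate 1, with an adjusted p of 1.

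Among genes lower in DH2, TraesCS3B01G001800 and TraesCS3B01G024300 had the largest falls. TraesCS3B01G001800 ran from 11.8 to 29.5 CPM in Superb (median 20.2) and from 11.2 to 31.9 CPM in DH1 (median 24.7). In 14 DH2 libraries it ran from 0 to 0.547 CPM, and in DH2 untreated replicate 3 it stood at 12.2 CPM, inside the range of the other genotypes. Its log2 fold change against Superb was -7.62 ± 0.47 (SE, adjusted p = 3.69e-15), and -8.38 without that library.

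TraesCS3B01G024300 had medians of 10.8 CPM in Superb and 9.53 CPM in DH1. The 14 other DH2 libraries lay between 0 and 0.304 CPM, with 12 of them at 0, and untreated replicate 3 stood at 19 CPM. The log2 fold change against Superb was -7.25 ± 0.68 (SE, adjusted p = 1.05e-09), and -8.6 without that library. The next genes in the order behaved alike. TraesCS3B01G024400 had medians of 1.67 CPM in Superb and 1.65 CPM in DH1, and no count in the 14 other DH2 libraries, against 2.46 CPM in untreated replicate 3. Taking 3 counts summed over those 14 libraries as the limit of detection, it was at least 94.6-fold lower there than in Superb and at least 93.8-fold lower than in DH1.

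TraesCS3B01G024500, the next gene again, was the only one of these that also differed between Superb and DH1. Its medians were 3.9 CPM in Superb, 1.77 CPM in DH1 and 0 CPM in DH2, where untreated replicate 3 alone reached 12.9 CPM. It fell by 1.33 ± 0.38 (SE) on the log2 scale in DH1 against Superb (adjusted p = 0.0278), with the ranges of 1.29 to 8.92 CPM and 0.433 to 2.56 CPM overlapping.

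After TraesCS3B01G001800 and TraesCS3B01G024300, which are given above, TraesCS3B01G001500 and TraesCS3B01G012100 had the largest excess of DH1 over the mean of Superb and DH2. TraesCS3B01G001500 had medians of 0.805 CPM in Superb, 1.09 CPM in DH1 and 0 CPM in DH2. TraesCS3B01G012100 had medians of 10.2, 11.2 and 0.0639 CPM, and the 14 DH2 libraries other than untreated replicate 3 lay at or below 0.729 CPM, under the Superb minimum of 6.23 CPM. Untreated replicate 3 again stood inside the range of the others, at 7.12 CPM. Neither gene was called between DH1 and Superb, with log2 fold changes of 0.70 ± 0.26 (SE, adjusted p = 0.13) and 0.22 ± 0.2 (adjusted p = 0.629), so their place in that ranking came from the low DH2 level. In all, 51 genes were called for DH1 against the mean of the other genotypes (against 15.1% of all tested genes) and 42 for Superb against the mean of the lines (against 6.5%), both contrasts that hold the DH2 level.

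TraesCS3B01G019900, named after its values were seen, was low but present in DH2. It ran from 29.7 to 97.3 CPM in Superb (median 74.5), from 30.1 to 92.4 CPM in DH1 (median 81.2) and from 3.36 to 33.9 CPM in DH2 (median 4.8). The high end of DH2 was untreated replicate 3, and the other 14 libraries reached 10.9 CPM. The log2 fold change was -3.31 ± 0.2 (SE) against Superb (adjusted p = 1.29e-15). Its neighbour TraesCS3B01G020000, also chosen after its values were seen, went the opposite way, with no count in any of the 30 Superb and DH1 libraries and 0.978 ± 0.478 CPM (SD, n = 15) in DH2. With 3 counts per genotype as the limit of detection, DH2 was at least 53.6-fold higher than Superb and at least 58-fold higher than DH1. It had no count in DH2 untreated replicate 3.

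**Figure D3:**
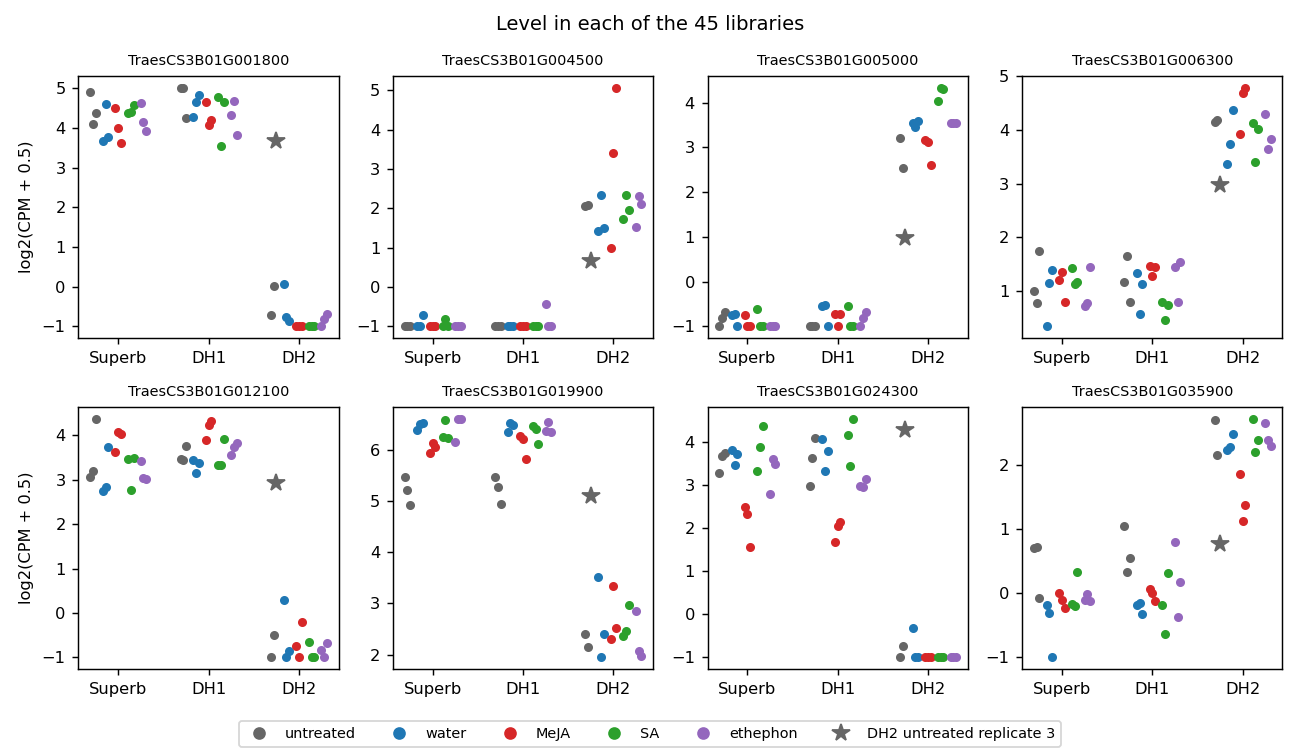
Level of 8 genes of distal 3BS in each of the 45 libraries, as log2(CPM + 0.5), by genotype and with conditions as colours; the star is DH2 untreated replicate 3. DH2 stands apart from Superb and DH1 in every panel once the starred library is set aside, above them in 4 genes and below them in the other 4.

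Complete separation of DH2 from the other genotypes was counted over all tested genes of the region. All 15 DH2 libraries lay apart from the 30 others for 9 genes (6.43%, against 0.517% of all tested genes), 6 of them above (0.263%) and 3 below (0.254%). Without DH2 untreated replicate 3 the count was 30 genes, 15 above and 15 below (21.4%, against 0.823%). No gene of the region set all Superb or all DH1 libraries apart from the rest, with or without that library, where 0.0159% and 0.537% of all tested genes did so with all libraries and 0.0238% and 0.566% without it. With all libraries and a mean of at least 1 CPM in the higher genotype or genotypes, TraesCS3B01G004500, TraesCS3B01G005000 and TraesCS3B01G026900 had Superb and DH1 means at or under 5% of the DH2 mean, and TraesCS3B01G001800 had a DH2 mean at or under 5% of both others. TraesCS3B01G020000, at 0.978 CPM in DH2, fell short of that minimum level. These counts are 2.14% and 0.714% of the tested genes of the region, against 0.147% and 0.122% of all tested genes. Without DH2 untreated replicate 3, TraesCS3B01G012000, TraesCS3B01G012100, TraesCS3B01G024300, TraesCS3B01G024400 and TraesCS3B01G024500 also had DH2 levels under 5% of both others. Superb and DH1 each averaged at least 1 CPM in these genes. TraesCS3B01G020000 then averaged 1.05 CPM in DH2 and passed the minimum level. The shares of all tested genes without that library were not computed.

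Called genes were also followed along the order, as a description without a test of adjacency. The longest unbroken run of called genes for DH2 against the mean of Superb and DH1 had 7 tested genes, and it occurred in a pair of places. One ran from TraesCS3B01G005700 to TraesCS3B01G006400, with its first gene lower and the next 6 higher in DH2. At its ends, TraesCS3B01G005700 had medians of 0.627 CPM in Superb, 0.738 CPM in DH1 and 0.447 CPM in DH2, and TraesCS3B01G006400 had medians of 0.074, 0.0662 and 0.756 CPM. The other ran from TraesCS3B01G011200 to TraesCS3B01G012100, with TraesCS3B01G011800 higher in DH2 and the 3 genes on either side of it lower. Outside these runs there were further unbroken stretches of at least 3 genes in 1 direction. They were 5 higher genes from TraesCS3B01G004500 to TraesCS3B01G005000, 4 lower genes from TraesCS3B01G001500 to TraesCS3B01G001900 and 4 higher genes from TraesCS3B01G006600 to TraesCS3B01G007500. Lower stretches of 3 genes ran from TraesCS3B01G020200 to TraesCS3B01G020500, from TraesCS3B01G024300 to TraesCS3B01G024500 and from TraesCS3B01G034700 to TraesCS3B01G034900. A higher stretch of 3 genes ran from TraesCS3B01G026700 to TraesCS3B01G027700. Each of these stretches was also unbroken without DH2 untreated replicate 3.

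The share of called genes was high along the whole stretch and lower right after it. In steps of 40 tested genes from the end of the arm, 60%, 52.5% and 45% were called for DH2 against the mean of Superb and DH1, and 60% of the last 20. Changes of at least 2-fold made up 37.5%, 30%, 27.5% and 30%. The direction shifted along the order, with 18 higher and 6 lower genes in the first step, 8 and 13 in the second, 9 and 9 in the third and 7 and 5 in the last. The next 4 steps of 40 genes on 3B, from TraesCS3B01G036900 on, had 12.5%, 12.5%, 10% and 20% called and at most 2.5% with a 2-fold change.

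Such shares were uncommon, but not unique, on the rest of chromosome 3B. Its 78 full steps of 40 genes ranged from 2.5% to 52.5% called, with a median of 17.5%, and 7 of them reached 45%, the lowest share among the steps of distal 3BS. For 2-fold changes the median was 1.25%, and 2 of the 78 steps reached 27.5%, with a highest value of 32.5%. The first 140 tested genes of 3A and 3D, the corresponding ends of the homoeologous chromosomes, had 20% and 20.7% called, and 2.86% and 7.86% with a 2-fold change. The extent of the region was chosen with earlier results of these data known, so its edge is not an independent finding.

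**Figure D4:**
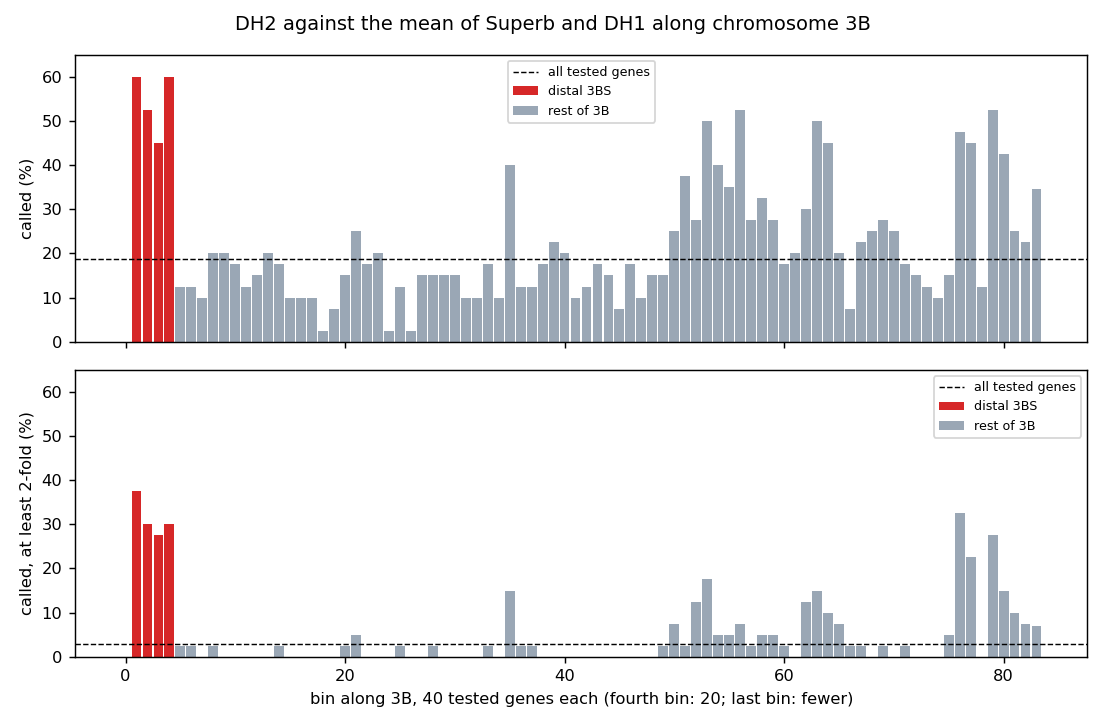
Share of tested genes called for DH2 against the mean of Superb and DH1 (top) and called with a change of at least 2-fold (bottom), in steps of 40 tested genes along chromosome 3B; the dashed lines give the share over all tested genes. The red bars of distal 3BS stand at 45% to 60% and 27.5% to 37.5%, and the next 4 bars at 10% to 20% and 0% to 2.5%.

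A few genes were called in a single one of the pairwise comparisons with DH2, without a call against the mean of the others, and all of these differences were small. TraesCS3B01G016300 was lower in DH2 than in Superb by 0.43 ± 0.11 on the log2 scale (SE, adjusted p = 0.0101), with medians of 2.24 and 2.96 CPM, and it was also lower in DH1 than in Superb (adjusted p = 0.00166). TraesCS3B01G003500 was lower in DH2 than in Superb (log2 fold change -0.59 ± 0.18 SE, adjusted p = 0.032). TraesCS3B01G012200 was higher in DH2 than in DH1 (0.17 ± 0.06, adjusted p = 0.0233). TraesCS3B01G030400 (-0.43 ± 0.15, adjusted p = 0.0323) and TraesCS3B01G005100 (-0.38 ± 0.13, adjusted p = 0.032) were lower in DH2 than in DH1. The groups overlapped in all of these genes, and the calls of TraesCS3B01G003500, TraesCS3B01G012200, TraesCS3B01G030400 and TraesCS3B01G005100 were lost when some single libraries were left out. Without DH2 untreated replicate 3, TraesCS3B01G005100 had an adjusted p of 0.0528.

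The difference between DH2 and the other genotypes was present in each condition. For DH2 against Superb, 20 genes of the region were called in untreated spikelets (against 1.27% of all tested genes), 36 after water (1.64%), 33 after MeJA (1.69%), 34 after SA (2.07%) and 41 after ethephon (2.03%). For DH2 against DH1 the counts were 23 untreated (2.66%), 38 after water (5.3%), 39 after MeJA (3.12%), 37 after SA (4.74%) and 38 after ethephon (3.44%). The lower counts in untreated spikelets went with DH2 untreated replicate 3, and without it they were 37 against Superb (1.44%) and 39 against DH1 (2.85%). Of the 67 genes called between DH2 and Superb over the 5 conditions, 61 had the same sign in each condition, as did 70 of the 78 called between DH2 and DH1. These genes were chosen on the mean of the same conditions, so such agreement is partly built in. The share among all called genes of the genome was not computed.

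TraesCS3B01G005000 illustrates a difference held through all conditions. Its DH2 libraries had 8.7, 5.29 and 1.45 CPM untreated, 11.2, 10.5 and 11.6 CPM after water, and 8.41, 8.23 and 5.62 CPM after MeJA. After SA they had 15.9, 19.6 and 19.3 CPM, and after ethephon 11.2, 11.2 and 11.1 CPM. The SA libraries were the highest, but the gene was not called between SA and water in DH2.

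Whether the difference depended on the condition was tested gene by gene. For DH2 minus Superb, 5 genes were called (3.57%, against 0.0793% of all tested genes), and for DH2 minus DH1, 4 (2.86%, against 0.105%). Without DH2 untreated replicate 3, no gene of the region was called in either test, where 0.0143% and 0.0333% of all tested genes were. In that library TraesCS3B01G001800 and TraesCS3B01G012100 stood inside the range of the other genotypes, as given above. TraesCS3B01G024300, at 19 CPM, stood above the medians of Superb and DH1. TraesCS3B01G024500, at 12.9 CPM, stood above all Superb and DH1 libraries.

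The adjacent genes TraesCS3B01G034700 and TraesCS3B01G034800 rose after MeJA in Superb and DH1 and fell in DH2. TraesCS3B01G034800 had 2.49, 1.12 and 2.89 CPM in the Superb water libraries and 5.23, 6.91 and 7.04 CPM after MeJA. DH1 had 4.39, 3.51 and 3.51 CPM after water and 4.54, 8.62 and 6.53 CPM after MeJA, and DH2 had 1.34, 0.706 and 0.737 CPM after water and 0.0924, 0.16 and 0.244 CPM after MeJA. The DH2 MeJA libraries held 9438236 to 13919673 counts, so these levels rest on a few reads per library. The size of the fall in DH2 is therefore uncertain. MeJA libraries were the highest in Superb and DH1, those of DH2 were among its lowest, and after MeJA DH2 did not overlap the others. Against water, the log2 fold change was 1.55 ± 0.35 (SE) in Superb (adjusted p = 0.000947), 0.81 ± 0.31 in DH1 (adjusted p = 0.0452) and -2.49 ± 0.71 in DH2 (adjusted p = 0.00859). The difference between these MeJA responses was tested only as part of the variation over the 5 conditions. The adjusted p for a difference from Superb that varied over conditions was 0.0196 with all libraries, and 0.106 without DH2 untreated replicate 3. It also rose above 0.05 when single MeJA libraries were left out, with 0.0581 without Superb MeJA replicate 2, and 0.155, 0.172 and 0.0639 without DH2 MeJA replicates 1, 2 and 3.

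TraesCS3B01G034700 had the same course at similar counts, and its DH2 MeJA levels also rest on a few reads per library. Superb rose from 2.4, 1.63 and 2.67 CPM after water to 3.62, 5.04 and 5.64 CPM after MeJA, while DH2 had 0.911, 0.265 and 0.526 CPM after water and 0.0924, 0.0799 and 0.244 CPM after MeJA. Its log2 fold change after MeJA against water was 1.07 ± 0.35 (SE) in Superb (adjusted p = 0.0211), 1.43 ± 0.33 in DH1 (adjusted p = 0.000947) and -2.13 ± 0.78 in DH2 (adjusted p = 0.0426). The log2 fold change of DH2 against Superb was -1.89 after water (adjusted p = 0.00856) and -5.09 after MeJA (adjusted p = 5.32e-08). The adjusted p for a varying difference was 0.0338 with all libraries and 0.426 without DH2 untreated replicate 3. It was also above 0.05 without any one of 12 other libraries of Superb and DH2.

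**Figure D5:**
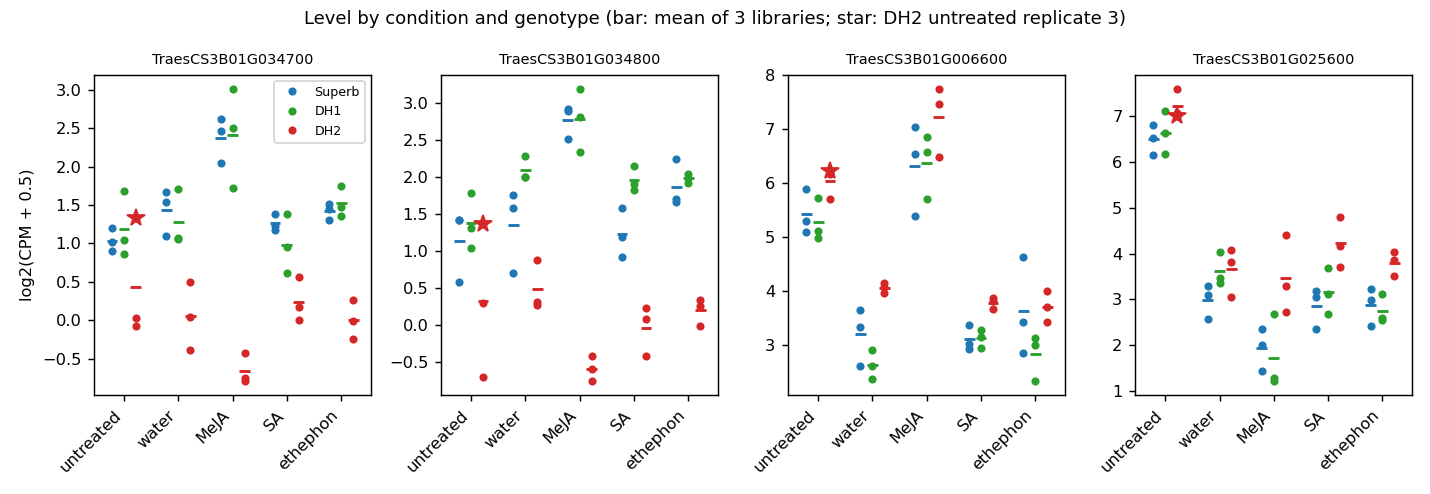
Level of 4 genes of distal 3BS by condition and genotype, as log2(CPM + 0.5); points are libraries, bars are means of 3 libraries and the star is DH2 untreated replicate 3. TraesCS3B01G034700 and TraesCS3B01G034800 rise after MeJA in Superb and DH1 and fall in DH2, where their MeJA levels rest on a few reads per library. TraesCS3B01G006600 rises after MeJA in each genotype, and TraesCS3B01G025600 is lower at 8 h than untreated in each genotype.

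Genes of the region responded to MeJA at about the share seen in all tested genes. Against water, 37 were called in Superb, where 22.1% of all tested genes were called, 44 in DH1 (27.7%) and 37 in DH2 (23.5%). The genes that rose numbered 22 in Superb (12.5% of all tested genes), 24 in DH1 (16.3%) and 15 in DH2 (14.3%). Those that fell numbered 15 (9.58%), 20 (11.4%) and 22 (9.22%). In all 3 genotypes, 14 rose (10%, against 9.57% of all tested genes) and 10 fell (7.14%, against 4.95%). Among genes with a mean of at least 1 CPM in some genotype, TraesCS3B01G006600 had the highest mean rise of those 14. In Superb it went from 9.59, 5.61 and 12.1 CPM after water to 41.6, 92.5 and 131 CPM after MeJA, and from 4.68, 6.95 and 5.61 to 51.9, 95.1 and 115 CPM in DH1. In DH2 it went from 16.4, 17.2 and 15.1 to 89.6, 176 and 214 CPM. No MeJA library overlapped a water library, and the log2 fold changes were 3.27, 3.91 and 3.3 (adjusted p = 8.09e-08, 3.9e-09 and 2.81e-08 by edgeR).

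TraesCS3B01G002200 rose by 3.09 ± 0.43 (SE) on the log2 scale in Superb, 4.08 ± 0.49 in DH1 and 3.03 ± 0.38 in DH2. TraesCS3B01G018400 fell in each genotype, with log2 fold changes of -3.53 ± 0.48 (SE), -3.13 ± 0.42 and -2.76 ± 0.41. TraesCS3B01G008100 fell as well, with -2.82 ± 0.55, -1.95 ± 0.54 and -2.84 ± 0.56, and its call in DH1 was lost without DH1 water replicate 3 (adjusted p = 0.0617). None of these 3 genes was called between genotypes over the 5 conditions. TraesCS3B01G004500, the DH2 gene at the head of the ranking, had 2.19, 4.59 and 2.32 CPM after water and 1.48, 10.2 and 33 CPM after MeJA in DH2 (log2 fold change 2.3, adjusted p = 0.00367), with overlapping groups.

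Between untreated spikelets at 0 h and water at 8 h, 38 genes of the region were called in Superb, where 27.5% of all tested genes were called, and 40 in DH1 (25.7%). In DH2 there were 55 (26.8%), and 36 without untreated replicate 3 (21.4%). With all libraries, 13 genes rose in Superb (13.9% of all tested genes), 14 in DH1 (13.1%) and 17 in DH2 (12.9%), while 25 (13.6%), 26 (12.5%) and 38 (13.8%) fell. In all 3 genotypes 8 rose (5.71%, against 8.12% of all tested genes) and 19 fell (13.6%, against 8.35%). TraesCS3B01G025600 had the largest mean fall of those 19. Superb went from 112, 71.2 and 91.2 CPM to 8.05, 9.28 and 5.45 CPM. DH1 went from 71.5, 98.5 and 139 CPM to 10.5, 9.73 and 16 CPM, and DH2 from 193, 134 and 129 CPM to 13.7, 16.5 and 7.84 CPM. The groups did not overlap, and the log2 fold changes were -3.58, -3.1 and -3.6. Time of sampling and spraying changed together in this comparison and cannot be told apart.

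TraesCS3B01G013300 fell in the same comparison, with log2 fold changes of -3.01 ± 0.38 (SE) in Superb, -2.39 ± 0.36 in DH1 and -1.88 ± 0.33 in DH2. TraesCS3B01G022600 rose by 1.37 ± 0.29, 1.03 ± 0.29 and 1.18 ± 0.28, and TraesCS3B01G013200 by 0.91 ± 0.17, 0.55 ± 0.17 and 0.82 ± 0.17. The calls of the last 2 genes in DH1 were lost without some single DH1 libraries, with an adjusted p of up to 0.0616 for TraesCS3B01G022600 and 0.0707 for TraesCS3B01G013200.

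No gene of the region was called after SA or after ethephon in any genotype by edgeR, where the shares of all tested genes were 0.0206%, 0.105% and 0.0491% for SA and 0.0571%, 0.00159% and 0% for ethephon in Superb, DH1 and DH2. At an unadjusted p under 0.05 there were 2, 3 and 7 genes of 140 for SA (against 3.1%, 5.18% and 3.51% of all tested genes) and 4, 9 and 2 for ethephon (against 3.99%, 7.2% and 2.07%). DESeq2 called none in Superb and DH1 and 1 in DH2 for each compound. That was TraesCS3B01G024500 both times, whose DH2 libraries had 0, 0 and 0.0526 CPM after water and 0 CPM in all SA and ethephon libraries.

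The 120 genes with counts that were not tested had totals of 1 to 239 counts over the 45 libraries, with a median of 15.5. Of the 68 with at least 10 counts, 3 had at least 90% of them in DH2, and 1, TraesCS3B01G035300, had at most 3% there. None had 90% in DH1 or Superb alone, a share that a gene present alike in both cannot reach. The shares over all untested genes of the genome were not computed. The limits of 90% and 3% are not alike, so the 3 and the 1 cannot be set against each other. Several genes lay a little past the low limit in DH2. Among them were TraesCS3B01G004000 (3 of 83 counts in DH2), TraesCS3B01G027000 (7 of 94) and TraesCS3B01G030000 (12 of 143). TraesCS3B01G024200, with 34 of 38 counts in DH2, lay just under the high limit. TraesCS3B01G027100 had 113 counts, TraesCS3B01G031500 had 22 and TraesCS3B01G031000 had 12, all of them in DH2 libraries. These genes were named after their values were seen, and no test was made at these counts.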

How the data were processed

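The authors deposited raw read counts per gene, 1 column for each of the 45 libraries; the values are whole numbers with a different total in each. The aligner was STAR 2.5.3a, per the submitters' processing notes. Those notes list DESeq2 too, with no role. The genome build, the counting program, its strand setting and how it treats reads with several matches are not given in sources used here, so overlapping genes, antisense genes and close copies are uncertain. A reference table of another assembly matched 0 of the 110790 identifiers, so no names or sequences are given.

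The analysis used edgeR 4.0.16 in R 4.3.3. Genes kept by filterByExpr over the 15 groups (63091, with 99.73% of counts) were scaled by TMM and fitted with glmQLFit (legacy = FALSE) as 15 group means, with 30 residual degrees of freedom. Each contrast went through glmQLFTest, with Benjamini-Hochberg adjustment over all 63091 genes and a threshold of 0.05. A standard error is the size of the log2 fold change over the root of its F statistic. CPM were computed from the deposited counts with TMM factors. A count of 0 over a group was given a limit of 3 counts, which covers counting error only. Replicates were not duplicates of each other: pairs gave chi-square values of 2.35 to 21.2 per degree of freedom. The steps were tested on simulated counts with 2-fold and 4-fold changes set in DH2. False calls were 12 of 204 for DH2 against Superb and 19 of 213 for DH2 against DH1. They were 16 of 212 for DH2 against the mean of the others. Of the 2-fold changes, 94% were recovered for DH2 against Superb over the 5 conditions, but 54% in water alone. Counts within 1 condition can therefore miss many 2-fold changes.

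Named genes have a mean of at least 1 CPM in a genotype and are the 2 highest and 2 lowest called genes of each contrast (for each genotype against the mean of the others, for calls found in a single comparison with DH2, and for MeJA and water responses called in all 3 genotypes), the 2 with the lowest p of each test of variation over conditions, and the ends of the longest run. A gene already taken was replaced by the next. The region, its members and these rules were chosen with earlier results of these data known. Alternatives were RLE normalization, no filter, a replicate block, untreated libraries only, no MeJA libraries, DESeq2 1.42.0, a 2-fold threshold and leaving out each library. Leaving out DH2 untreated replicate 3 together with the first ethephon replicates of Superb and DH1 was added after seeing the data.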

Additional observations from a re-analysis of the deposited data

Results flagged for a closer look

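Differences between genotypes that varied over the 5 conditions were tested in edgeR, and 9 results in 6 genes passed at an adjusted p under 0.05. For DH2 minus Superb these were TraesCS3B01G001800 (adjusted p = 0.0169), TraesCS3B01G024300 (0.0331), TraesCS3B01G024500 (0.0215), TraesCS3B01G034700 (0.0338) and TraesCS3B01G034800 (0.0196). For DH2 minus DH1 they were TraesCS3B01G001800 (adjusted p = 0.0171), TraesCS3B01G012100 (0.0161), TraesCS3B01G024300 (0.0306) and TraesCS3B01G034700 (0.0202). Without DH2 untreated replicate 3 none of them passed. In that library TraesCS3B01G001800 had 12.2 CPM, TraesCS3B01G012100 7.12 CPM, TraesCS3B01G024300 19 CPM and TraesCS3B01G024500 12.9 CPM, while the other 14 DH2 libraries reached at most 0.547, 0.729, 0.304 and 0.0924 CPM. TraesCS3B01G034700 and TraesCS3B01G034800 stood at 2.02 and 2.08 CPM in it, against at most 0.971 and 1.34 CPM in the other DH2 libraries. Their contrasts of MeJA against water do not hold the untreated group, but the fit shares its estimate of spread over all libraries. The difference between the MeJA responses was not tested on its own.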

How the results depend on the processing

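With untreated libraries only, DH2 against Superb gave 7 called genes, DH2 against DH1 10, DH1 against Superb 0, and DH2, DH1 and Superb against the mean of the others 11, 1 and 0. That fit held DH2 untreated replicate 3. Its shares of all tested genes were not computed, so fewer calls in the region and fewer calls over all genes cannot be told apart. With all libraries, calls with a change of at least 2-fold in the same comparisons numbered 43, 42, 1, 44, 21 and 18. The shares of all tested genes were 2.08%, 4.14%, 1.66%, 2.85%, 2.64% and 1.43%. Without MeJA libraries DH1 against Superb gave 4. Leaving out DH2 untreated replicate 3 together with the first ethephon replicates of Superb and DH1, 3 libraries in all, gave 0 and 0 for the varying differences, 36 for water against untreated in DH2, 36 and 39 for DH2 against Superb and DH1 untreated, and 30 genes with DH2 wholly apart, the same count as without DH2 untreated replicate 3 alone. DESeq2 called 1 gene each for SA and ethephon in DH2. Leaving out 1 library at a time gave 62 to 70 for DH2 against Superb, 73 to 80 for DH2 against DH1, 3 to 9 for DH1 against Superb, and 69 to 79, 46 to 56 and 37 to 45 for DH2, DH1 and Superb against the mean of the others. It gave 0 to 8 and 0 to 10 for the differences from Superb and DH1 that vary over conditions, 13 to 37 and 13 to 39 for DH2 against Superb and DH1 untreated, and 36 to 56 for water against untreated in DH2. The low ends of the untreated ranges came without Superb untreated replicate 3 and DH1 untreated replicate 3. For DH1 against Superb, 3 came without Superb water replicate 1. Fewer libraries entered these fits, and otherwise the cause was not tested. Among the counts without the 3 libraries, the 30 genes wholly apart stand against 0.864% of all tested genes. For the other counts without those 3, those without MeJA libraries and the leave-one-out ranges, such shares are not given here. Those counts therefore do not show whether a change is particular to the region.

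Same-numbered libraries of DH2 and the other genotypes deviated together with correlations over 0.1 in 13 of 15 pairs with Superb and 12 of 15 with DH1 (from -0.147 to 0.661), and 12 of 15 DH2 libraries correlated best with their own number in each. The labels do not say whether equal numbers mark a shared block, and not every pair passed, so the main fit did not take them as pairs. A shared block is therefore not accounted for in its p-values. A replicate block gave 76 genes for DH2 against Superb, 13 for DH1 against Superb (9.29%, against 8.99% of all tested genes) and 3 for the varying difference from Superb. For the 76 and the 3, the shares of all tested genes were not computed. Of 1265 values of the named genes under alternatives, 1179 had the same direction and side of the threshold, 85 had the same direction without a call and 1 reversed, TraesCS3B01G024500 in Superb against the mean of the lines with untreated libraries only (-0.07, adjusted p = 1). Genes with few counts limit what could be tested, with 120 of 260 counted genes left out by the filter.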

Other observations

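The share of genes for which DH2 untreated replicate 3 lay nearer to DH2 differed between chromosomes. Of the genes that set DH2 apart elsewhere, it lay nearer to DH2 for 40 of 48 on chromosome 1A and 19 of 22 on 7A, and for 17 of 42 on 5B and 14 of 25 on the rest of 3B. It did so for 2 of 10 on 4A and 0 of 7 on 3D. Within distal 3BS, it lay nearer to the other genotypes for all 7 genes that are lower in DH2, and for 3 of the 8 that are higher. The counts by chromosome were not split by direction, so the mix of higher and lower genes and the chromosome cannot be told apart.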
